A study of Mus musculus with 2 samples.

Results

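The serotonin receptor genes described here were Htr3a, Htr3b, Htr1a, Htr1b, Htr1d, Htr1f, Htr2a, Htr2c, Htr4 and Htr7, taken by symbol from the feature table. They were 10 of its 32286 features and 10 of its 14 serotonin receptor genes, and each of the 10 had UMIs (counted transcript molecules) in both libraries. Single-nucleus RNA-seq had been run on the vagus nerve ganglia of mice pooled by sex, with 14 ganglia of 7 females in the female pool and 16 ganglia of 8 males in the male pool, and each pool was 1 library. Both groups were C57BL/6J mice with the Rosa26-floxed-STOP-Cas9-eGFP allele, bought at 8 to 9 weeks of age and fed standard chow, and both had received AAVrg-Cre in the liver 4 weeks before the ganglia were taken. The virus enters nerve endings and carries Cre, which removes the stop in front of Cas9 and eGFP in any cell it reaches, so no promoter limited the allele to a cell type. There was no group without the virus or the allele.

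Serotonin (5-HT) is released by the enterochromaffin cells of the gut, among other cells, and acts on the endings of vagal sensory neurons. The 5-HT3 receptor is a cation channel that serotonin opens directly. It needs the subunit made from Htr3a, and the subunit made from Htr3b can join it. All other serotonin receptors are G protein-coupled. The 5-HT1 receptors act through Gi/o proteins, the 5-HT2 receptors through Gq, and the 5-HT4 and 5-HT7 receptors through Gs. In the mouse the nodose ganglion, whose neurons arise from a placode, is fused with the jugular ganglion, whose neurons arise from the neural crest and express the transcription factor Prdm12.

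The female pool held 3791 nuclei with a median of 2381 UMIs and the male pool 4923 nuclei with a median of 2658 UMIs. With 1 library for each sex, the library and the sex cannot be told apart, and no test between the pools was possible. Intervals given below are 95% intervals that cover counting error only. Xist, expressed from the inactive X chromosome, had 13424 female and 7 male UMIs, and the Y-linked gene Ddx3y had 12 and 1789. Of EGFP, 1 UMI was counted in females and 0 in males. Barcode sequences were shared by 8 nuclei of each library.

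Nuclei were clustered again here without any Htr gene, and the clusters were named from marker lists. The names may therefore differ from those of the study, which counted most of the 8714 nuclei as neurons. Far fewer were neuron-like here, so most nuclei of the non-neuronal class were among those the study called neurons. The neuron-like nuclei numbered 2292, with 673 in the female pool and 1619 in the male pool, and a median of 7251 UMIs. The 5407 non-neuronal nuclei, with a median of 2112 UMIs, were Schwann cell-like, satellite glia-like, fibroblast-like, barrier fibroblast-like, macrophage-like, adipocyte-like and endothelial cell-like. RNA of neuronal genes was not limited to the neuron-like clusters. The summed level of 10 neuron markers was 49.9 UMIs per 10000 in neuron-like nuclei and 34.3 in non-neuronal nuclei, so levels of the receptors in non-neuronal nuclei are given throughout as the background. Cerebellar granule cell-like nuclei, pituitary cell-like nuclei and an unnamed cluster led by Prg4 were kept out of both classes.

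The neuron-like nuclei formed 12 types, named here by a leading gene. Nodose-like types were led by Sncaip (334 nuclei), Eya4 (275), St18 (160) and, in a shallow type with a median of 2066 UMIs, Cysltr2 (460). Jugular-like types were led by Grik1 (178), Gfra3 (153) and Cdh9 (98). The nodose marker list summed to 17.0 UMIs per 10000 in nodose-like and 1.51 in jugular-like nuclei, and the 7 measured jugular markers to 1.78 and 13.9. Types led by Tafa1 (104 nuclei), Chrna7 (119) and Trpm8 (56) had too few raised markers to be named. A type led by Cdh19 (225) had satellite glia markers at 29.3 UMIs per 10000 against 2.82 to 10.0 in the other neuron types, and is called glia-mixed. A sympathetic neuron-like type (130), with its own markers at 35.9 against 0.728 to 4.93, came almost wholly from the male pool, with 125 male and 5 female nuclei.

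Of the serotonin receptors, Htr4 and Htr1f stood furthest above the non-neuronal background, Htr3a summed over neuron-like nuclei did not stand above it in the male pool, and each receptor had its own distribution over the neuron types. Htr4, the 5-HT4 receptor, was highest in Grik1 jugular-like nuclei. Htr1a and Htr1b, which encode inhibitory 5-HT1 receptors, were highest in Gfra3 jugular-like nuclei, and Htr3a and Htr3b were highest in nodose-like and sympathetic neuron-like nuclei. Htr7, the 5-HT7 receptor, was highest in the Tafa1 and Eya4 types. The plot of levels by type shows all 10 genes in each library.

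**Figure D1:**
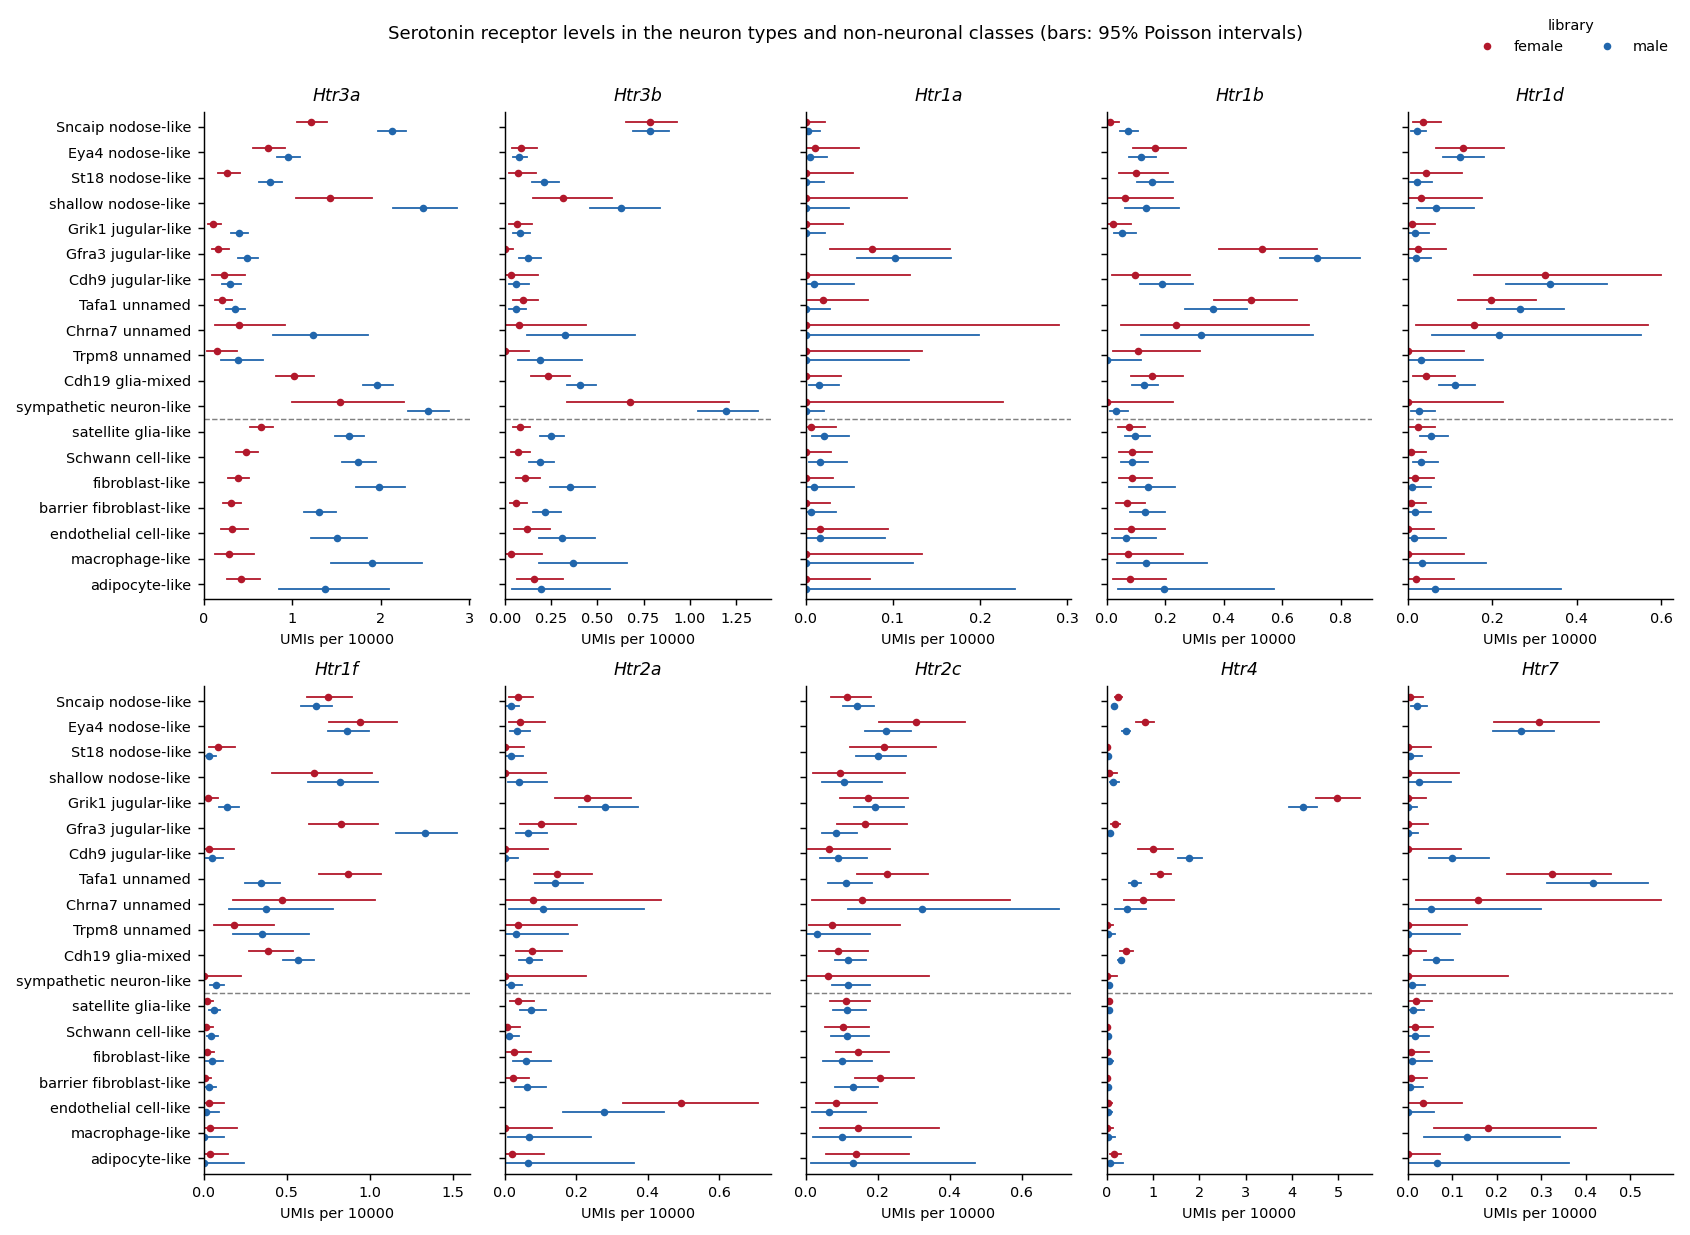
UMIs of each of the 10 receptor genes per 10000 UMIs (horizontal axes, each on its own scale) in the 12 neuron types and 7 non-neuronal classes (vertical axis), with the female pool in red, the male pool in blue and bars for the 95% Poisson interval. Htr4 reached 4.97 and 4.23 in Grik1 jugular-like nuclei, while male Htr3a lay between 1.30 and 1.98 in the non-neuronal classes and under 1.30 in 8 of the 12 neuron types.

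Members were first compared between neuron-like and non-neuronal nuclei. A gene was counted as higher or lower when it was at least 2-fold apart in the same direction in both libraries. All 10 receptors had the 20 UMIs over both classes that were asked of a gene. Of them 4 were higher in neuron-like nuclei, Htr4, Htr1f, Htr7 and Htr1d, against 12.0% of the 19039 genes tested. None was lower, against 16.9% of all genes. The count was 7 with the female pool alone, where Htr3b, Htr1a and Htr1b joined, and 2, Htr1f and Htr4, when macrophage-like nuclei alone were the background, where Htr7 turned to a log2 ratio of -1.02. The share of all genes is not given for these settings, and the 12.0% does not apply to them. The median log2 ratio over both libraries was 0.95 for the 10 receptors and -0.22 for all genes tested. RNA from outside a nucleus was not removed from these values.

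The second comparison was between nodose-like and jugular-like nuclei, each summed over its types, which were not alike for every receptor. Htr3a, Htr3b and Htr7 were higher in nodose-like nuclei, 3 of 10 against 7.33% of the 16348 genes tested. Htr1a, Htr1b, Htr2a and Htr4 were higher in jugular-like nuclei, 4 of 10 against 5.43%. Htr1d, Htr1f and Htr2c met the rule in neither direction. The median log2 ratio of nodose-like over jugular-like was -0.12 for the receptors and 0.04 for all genes.

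**Figure D2:**
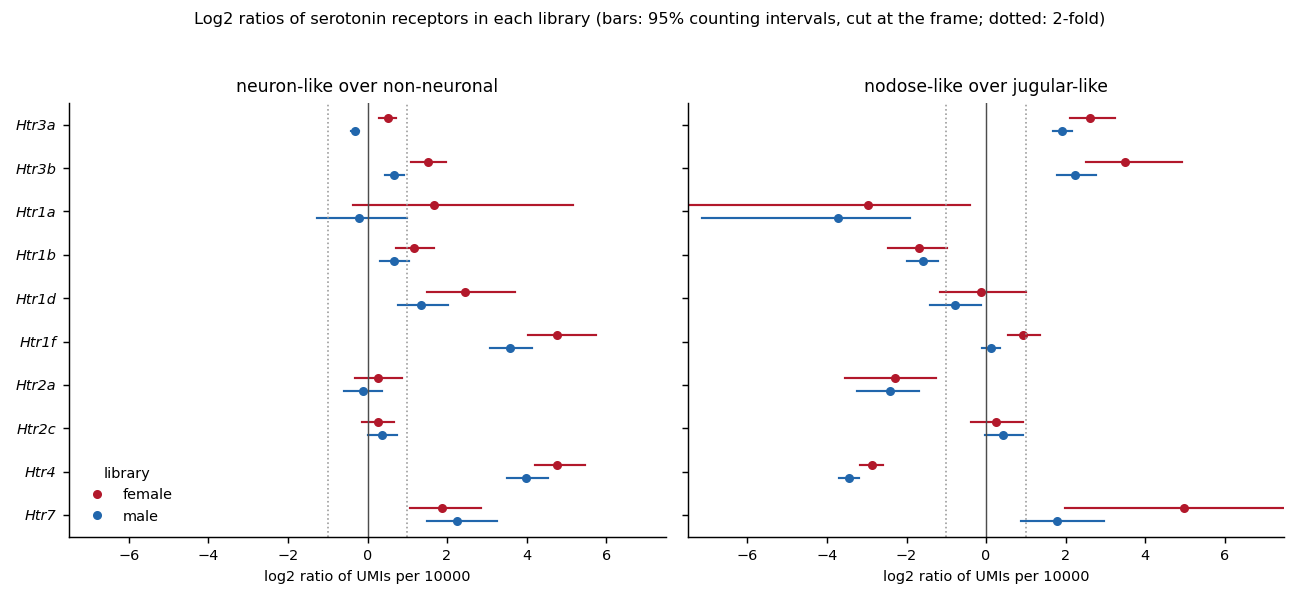
Log2 ratio of UMIs per 10000 for each receptor gene in neuron-like over non-neuronal nuclei (left) and in nodose-like over jugular-like nuclei (right), female pool in red and male pool in blue, with 95% counting intervals cut at the frame and dotted lines at 2-fold. Htr4 and Htr1f lay between 3.57 and 4.77 on the left in both libraries, and on the right Htr3a and Htr3b lay above the upper dotted line while Htr1a, Htr1b, Htr2a and Htr4 lay under the lower one.

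Htr3a encodes the subunit without which no 5-HT3 channel forms. In GENCODE vM21 on mm10 it lies on the minus strand at chr9:48899213-48911099, and Htr3b lies upstream of it on the same strand at chr9:48935008-48964990, with 23.9 kb between the genes. Htr3a was at 0.630 UMIs per 10000 (0.576 to 0.688) in female and 1.32 (1.27 to 1.38) in male neuron-like nuclei. In non-neuronal nuclei it was at 0.443 (0.394 to 0.496) and 1.63 (1.55 to 1.73). Neuron-like nuclei were thus the higher class in the female pool and the lower class in the male pool, with log2 ratios of 0.51 (0.30 to 0.72) and -0.31 (-0.40 to -0.21).

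Among the neuron types, Htr3a was highest in the sympathetic neuron-like (1.54 female, 2.53 male), shallow nodose-like (1.42, 2.48), Sncaip nodose-like (1.22, 2.12) and Cdh19 glia-mixed (1.02, 1.96) nuclei. Among these 4, neighbours in the order of levels did not differ beyond their intervals. In the female pool the interval of each of the 4 lay above the intervals of all 7 non-neuronal classes, of which satellite glia-like nuclei were highest at 0.643. In the male pool the same 4 lay above the summed non-neuronal level of 1.63, but no type's interval lay above those of all 7 classes, of which fibroblast-like nuclei were highest at 1.98. The lowest levels were in Grik1 jugular-like nuclei of the female pool at 0.103 and in Cdh9 jugular-like nuclei of the male pool at 0.298.

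Within neurons the nodose-like over jugular-like difference of Htr3a held in both libraries. Nodose-like nuclei had 0.924 UMIs per 10000 (329 UMIs) in the female and 1.53 (1225 UMIs) in the male pool. Jugular-like nuclei had 0.147 (29 UMIs) and 0.405 (173 UMIs). The levels were 6.17-fold and 3.76-fold higher in nodose-like nuclei, with log2 ratios of 2.63 (2.10 to 3.25) and 1.91 (1.69 to 2.15). Male jugular-like nuclei had less Htr3a than any of the 7 male non-neuronal classes. Male nodose-like nuclei, at 1.53, were not above the summed level of male non-neuronal nuclei given above. The median depth was 5334 UMIs in nodose-like and 11315 UMIs in jugular-like nuclei.

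Shares of nuclei with a UMI of Htr3a were set beside its background. As sequenced, 32.5% of female and 55.7% of male neuron-like nuclei had an Htr3a UMI, against 10.3% and 33.3% of non-neuronal nuclei. After each nucleus was thinned to 1000 UMIs, the shares were 8.93% and 13.3% in neuron-like nuclei against 4.74% and 16.8% in non-neuronal nuclei. In macrophage-like nuclei, taken as a background because they are not neurons, the thinned shares were 1.47% and 20.4%. A single Htr3a UMI in the male pool was therefore no more frequent in neurons than in macrophages at equal depth. The part of free RNA in the Htr3a levels was not tested. The thinning left out 19 female nuclei with under 1000 UMIs.

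Nuclei with many Htr3a UMIs were nearly all neuron-like. At least 5 UMIs were found in 154 neuron-like nuclei and in 3 of the 5407 non-neuronal nuclei, and the 154 nuclei held 48.5% of all neuron-like Htr3a UMIs. The highest nucleus had 65 UMIs. By type, the share with at least 5 was 16.8% and 21.3% of Sncaip nodose-like nuclei in the female and male libraries and 20.8% of male sympathetic neuron-like nuclei. Depth differs between the classes, so nuclei of at least 5000 UMIs were also thinned to 5000, and at least 3 UMIs were then found in 3.56% and 5.42% of neuron-like and in 6.25% and 12.8% of Sncaip nodose-like nuclei. Among non-neuronal nuclei that deep, 1 of 207 female and 9 of 212 male nuclei (4.25%) reached 3 UMIs. The male neuron-like and non-neuronal shares thus lay close together at this depth, and the male Sncaip share was the higher of these values.

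Htr3b encodes the second subunit, which alters the conductance of the channel. It was at 0.252 UMIs per 10000 in female and 0.400 in male neuron-like nuclei, against 0.0879 and 0.250 in non-neuronal nuclei. The log2 ratios of 1.51 (1.09 to 1.96) and 0.67 (0.45 to 0.91) were above 0 in both libraries but did not reach 2-fold in the male pool. Sncaip nodose-like nuclei had the same level in both libraries, 0.784 (129 UMIs) and 0.786 (258 UMIs). Sympathetic neuron-like nuclei had 0.676 from 11 UMIs and 1.2 from 215 UMIs. The intervals of these types, and of no other, lay above those of all 7 non-neuronal classes in both libraries, the class levels reaching 0.160 in the female and 0.368 in the male pool.

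Summed over types, Htr3b was also higher in nodose-like than in jugular-like nuclei. Its level was 0.427 (152 UMIs) and 0.448 (359 UMIs) per 10000 in nodose-like nuclei and 0.0356 (7 UMIs) and 0.0937 (40 UMIs) in jugular-like nuclei. It was 11.2-fold and 4.73-fold higher in nodose-like nuclei, with log2 ratios of 3.49 (2.51 to 4.92) and 2.24 (1.78 to 2.77). Within the nodose-like types Htr3b was less evenly spread than Htr3a. Eya4 nodose-like nuclei, with Htr3a at 0.722 and 0.950, had Htr3b at 0.0876 and 0.0758. Libraries summed, their Htr3b was at 0.0792, beside 0.0852 in Gfra3 and 0.0777 in Grik1 jugular-like nuclei. The Sncaip type held 387 of the 511 nodose-like UMIs. Of all neuron-like Htr3b UMIs, 40.9% were in the Sncaip type, which held 18.5% of all UMIs.

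The levels of the 2 subunits went together over the neuron types. Pearson's r of the log2 levels over the 12 types, libraries summed, was 0.91 between Htr3a and Htr3b and -0.69 between Htr3a and Prdm12. The types share libraries, so these values are descriptions. Within single nuclei the overlap depended on how many UMIs were asked for. Of the 40 neuron-like nuclei with at least 5 Htr3b UMIs, 31 (77.5%) had at least 5 Htr3a UMIs, and these were 20.1% of the 154 nuclei with at least 5 Htr3a UMIs. Of all neuron-like nuclei, 6.72% had at least 5 Htr3a UMIs and 1.75% at least 5 Htr3b UMIs. These shares depend on depth, as 1 of the 460 shallow nodose-like nuclei reached 5 Htr3a UMIs. Of the 40 nuclei, 18 were Sncaip nodose-like and 15 sympathetic neuron-like, types that were also among the highest in Htr3a.

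With a single UMI as the criterion, 30.5% of nodose-like nuclei with Htr3a had Htr3b (194 of 637) against 12.3% of those without (73 of 592). The nuclei with Htr3a were also deeper, with a median of 7503 against 3591 UMIs. After thinning to 1000 UMIs the shares were 6.15% (11 of 179, 3.11 to 10.7) and 3.91% (41 of 1049), and the second lay inside the interval of the first. A tie between both subunits in single nodose-like nuclei was not detectable at that depth.

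Htr1a, Htr1b, Htr1d and Htr1f encode the receptors that lower cyclic AMP through Gi/o. Htr1f was the most distinct of them from the background. It was at 0.547 UMIs per 10000 (438 UMIs) in female and 0.508 (946 UMIs) in male neuron-like nuclei, against 0.0194 (13 UMIs) and 0.0422 (33 UMIs) in non-neuronal nuclei. The levels were 27.2-fold and 11.9-fold higher in neuron-like nuclei, with log2 ratios of 4.77 (4.03 to 5.74) and 3.57 (3.09 to 4.14). As sequenced, 12.8% and 12.7% of neuron-like nuclei had a UMI of Htr1f, against 0.439% and 1.0% of non-neuronal nuclei. Thinned to 1000 UMIs, these shares were 3.72% and 2.66% against 0.161% and 0.448%.

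Htr1f was not a gene of one ganglion. Its level in the female and male pools was 0.823 and 1.33 in Gfra3 jugular-like, 0.941 and 0.861 in Eya4 nodose-like, 0.663 and 0.817 in shallow nodose-like, 0.748 and 0.673 in Sncaip nodose-like and 0.867 and 0.341 in Tafa1 nuclei. Gfra3 was highest in the male pool but behind Eya4 and Tafa1 in the female pool, so the order of the types differed between the pools. In 6 types, these 5 and the glia-mixed type, the interval lay above those of all 7 non-neuronal classes in both libraries. In the St18 nodose-like, Grik1 jugular-like and Cdh9 jugular-like types the level did not exceed 0.0875 in the female and 0.141 in the male pool. The nodose-like over jugular-like log2 ratio was 0.93 (0.54 to 1.35) in the female and 0.12 in the male pool, so the ganglion lists did not divide Htr1f in the way they divided Htr3a or Htr4.

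Few nuclei held most of the Htr1f. At least 5 UMIs were present in 71 neuron-like and no non-neuronal nuclei, and these 71 held 73.3% of neuron-like Htr1f UMIs. In the Gfra3 type, 16 of 153 nuclei had any Htr1f, and 8 nuclei held 96.0% of the 272 UMIs. The highest nucleus of all had 87 UMIs. The level of a type was thus set by a small number of nuclei, and the Poisson interval, which takes UMIs as independent, is too narrow for it.

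Htr1b was highest in Gfra3 jugular-like nuclei, at 0.532 UMIs per 10000 (42 UMIs) in the female and 0.718 (112 UMIs) in the male pool, and next in Tafa1 nuclei at 0.492 and 0.364. Over both libraries the first was above the second beyond their intervals, at 0.656 and 0.419. In the female pool alone the intervals overlapped (0.383 to 0.719 and 0.365 to 0.649), while in the male pool they did not. However, 3 of the 41 female Tafa1 nuclei held 48.0% of that type's 50 female UMIs, so its Poisson interval is too narrow. The Gfra3 type, which also led in the peptide gene Calca at 20.1, held 33.1% of neuron-like Htr1b UMIs and 8.82% of all UMIs. In Sncaip nodose-like nuclei Htr1b was at 0.0122 and 0.0731. Jugular-like levels of 0.239 and 0.328 were 3.25-fold and 3.01-fold above the nodose-like levels of 0.0730 and 0.109, with log2 ratios of nodose-like over jugular-like of -1.70 (-2.46 to -0.99) and -1.59 (-2.0 to -1.2). The Gfra3 type held 154 of the 187 jugular-like UMIs. Cdh9 jugular-like nuclei had 0.0978 (3 UMIs) and 0.189 (19 UMIs). Grik1 jugular-like nuclei, at 0.0230 (2 UMIs) and 0.0528 (9 UMIs), were no higher than nodose-like nuclei. Non-neuronal nuclei had 0.0790 and 0.109, so the nodose-like level of Htr1b did not exceed the background. The gene D430036J16Rik overlaps Htr1b on the opposite strand, and had 125 UMIs in neuron-like and 29 in non-neuronal nuclei.

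Htr1d, the receptor that triptan drugs bind together with the product of Htr1b, had a different distribution. Cdh9 jugular-like nuclei had 0.326 (10 UMIs) and 0.338 (34 UMIs) per 10000, Tafa1 nuclei 0.197 and 0.267, and Eya4 nodose-like nuclei 0.131 and 0.125. Chrna7 nuclei had 0.157 and 0.215, but from 2 and 4 UMIs. In Gfra3 jugular-like nuclei, where Htr1b was highest, Htr1d was at 0.0253 and 0.0192. The neuron-like level of 0.0761 and 0.0859 exceeded the non-neuronal level of 0.0134 and 0.0332 by log2 ratios of 2.44 (1.49 to 3.70) and 1.35 (0.77 to 2.03). The Cdh9 type also had the highest level of Piezo2, the mechanically gated channel, at 25.9. Tafa1 followed at 15.9, Grik1 at 11.3, Chrna7 at 11.0 and Eya4 at 7.5. Grik1 nuclei, however, had the lowest Htr1d of the 12 types, at 0.0155 from 4 UMIs, libraries summed.

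Htr1a was barely detected. It had 9 UMIs in female and 23 in male neuron-like nuclei, and 2 and 11 in non-neuronal nuclei. Of the 32 neuron-like UMIs, 22 (68.8%) were in the Gfra3 type, with 6 in the female and 16 in the male pool. Jugular-like nuclei had 6 and 17 UMIs and nodose-like nuclei 1 and 2, and the log2 ratios were -2.97 and -3.72. Htr1a therefore met the 2-fold rule between the ganglia on these few UMIs, and its neuron-like over non-neuronal ratio was not resolved, at 1.67 (-0.36 to 5.16) in the female pool and -0.22 in the male pool.

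Htr2a and Htr2c encode Gq-coupled receptors. Htr2a was alike in both classes and uneven within each. Neuron-like nuclei had 0.0774 and 0.0650 UMIs per 10000 and non-neuronal nuclei 0.0641 and 0.0703, with log2 ratios of 0.27 and -0.12. Within neurons Htr2a was highest in Grik1 jugular-like nuclei, at 0.230 (20 UMIs) and 0.282 (48 UMIs), and that type held 37.2% of neuron-like Htr2a UMIs. Jugular-like levels of 0.142 and 0.136 were 4.91-fold and 5.35-fold above the nodose-like levels of 0.0281 and 0.0250. The Grik1 type held 68 of the 86 jugular-like UMIs. Gfra3 jugular-like nuclei were at 0.101 (8 UMIs) and 0.0641 (10 UMIs), and Cdh9 jugular-like nuclei had 0 UMIs in both libraries.

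Outside neurons Htr2a was an endothelial cell-like gene. That class had 0.493 UMIs per 10000 (0.330 to 0.709, 29 UMIs) in the female and 0.279 (0.162 to 0.446, 17 UMIs) in the male pool, while every other non-neuronal class was at or under 0.0374 and 0.0729. After the endothelial cell-like nuclei were clustered again, 16 of the 46 UMIs were in a group of 68 nuclei at 1.12 (0.643 to 1.83), and 13 were in a mural cell-like group of 59 nuclei at 0.369. A group of 94 nuclei had 0 UMIs, which allows up to 0.147. The vessel markers did not rank these groups alike. Pecam1 was at 16.8 in the group of 94 and 5.20 in the group of 68. Flt1 was at 1.08 and 28.8, and Cdh5 at 1.84 and 2.53. The second clustering was added after the values were seen.

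Htr2c differed little between the classes. Neuron-like nuclei had 0.163 and 0.145 UMIs per 10000 and non-neuronal nuclei 0.136 and 0.112, with log2 ratios of 0.27 and 0.36 (0.01 to 0.73). Eya4 nodose-like nuclei had 0.306 (0.204 to 0.443, 28 UMIs) and 0.223 (0.166 to 0.294, 50 UMIs), above the interval of summed non-neuronal nuclei in both libraries, but not above the intervals of all 7 classes. Chrna7 nuclei had 0.157 and 0.323, from only 2 and 6 UMIs. Neighbours in the order of the 12 types were not separated beyond their intervals. Types further apart were, such as Eya4 (0.195 to 0.309, libraries summed) and Sncaip nodose-like nuclei (0.104 to 0.170). However, 1 female Eya4 nucleus held 12 of the 28 female UMIs of that type. The Poisson interval takes UMIs as independent and is too narrow there. As sequenced, 16.4% of Eya4 and 16.2% of Sncaip nuclei had a UMI of Htr2c, libraries summed. The thinned shares of nuclei with a UMI, 1.34% and 1.42% in neuron-like against 1.04% and 1.07% in non-neuronal nuclei, did not part the classes either. The non-neuronal level, which ran from 0.0851 to 0.207 over the female classes, was of the same size as the neuronal one.

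Htr4 encodes the 5-HT4 receptor, which raises cyclic AMP through Gs. It was at 0.951 UMIs per 10000 (762 UMIs) in female and 0.674 (1254 UMIs) in male neuron-like nuclei, against 0.0343 (23 UMIs) and 0.0422 (33 UMIs) in non-neuronal nuclei. The levels were 27.2-fold and 15.7-fold higher in neuron-like nuclei, with log2 ratios of 4.76 (4.2 to 5.46) and 3.98 (3.50 to 4.54). Most of it was in 1 type. Grik1 jugular-like nuclei had 4.97 (4.52 to 5.46, 433 UMIs) and 4.23 (3.93 to 4.55, 721 UMIs), which was 57.2% of neuron-like Htr4 UMIs in a type with 9.67% of all UMIs.

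Cdh9 jugular-like nuclei came next for Htr4, with 1.01 (31 UMIs) and 1.79 (180 UMIs), then Tafa1 (1.16 and 0.601), Chrna7 (0.787 and 0.431) and Eya4 nodose-like nuclei (0.821 and 0.415). The Grik1 type was above the Cdh9 type beyond their intervals in both libraries, while the Cdh9 type was above the Tafa1 type in the male pool only and the order of their levels turned in the female pool. The Gfra3 jugular-like type, with the most Htr1b, was at only 0.177 and 0.0834, and St18 nodose-like nuclei had 0 and 4 UMIs. Jugular-like levels of 2.43 and 2.14 were 7.31-fold and 10.8-fold above the nodose-like levels of 0.331 and 0.197, with log2 ratios of nodose-like over jugular-like of -2.87 (-3.18 to -2.58) and -3.44 (-3.69 to -3.20).

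By nucleus, 130 of the 178 Grik1 nuclei had a UMI of Htr4, and the nuclei of this type held 1072 to 93819 UMIs. Shares at a fixed cutoff depend on depth, so they do not show whether Htr4 divides the type. At least 5 UMIs were found in 39.0% of female and 43.7% of male Grik1 nuclei, 75 of 178 in all, which held 88.1% of that type's Htr4. Over all neurons 130 nuclei had at least 5 UMIs of Htr4, against 1 non-neuronal nucleus. In nuclei thinned to 5000 UMIs, at least 3 UMIs of Htr4 were found in 33.3% and 31.8% of Grik1 nuclei, in 1 of 207 female non-neuronal nuclei (0.483%) and in 0 of 212 male ones. At least 5 UMIs of both Htr4 and Htr3a were found in 6 nuclei, 4.62% of the Htr4 nuclei and 3.90% of the Htr3a nuclei, while 6.72% of all neuron-like nuclei had at least 5 of Htr3a and 5.67% at least 5 of Htr4.

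**Figure D3:**
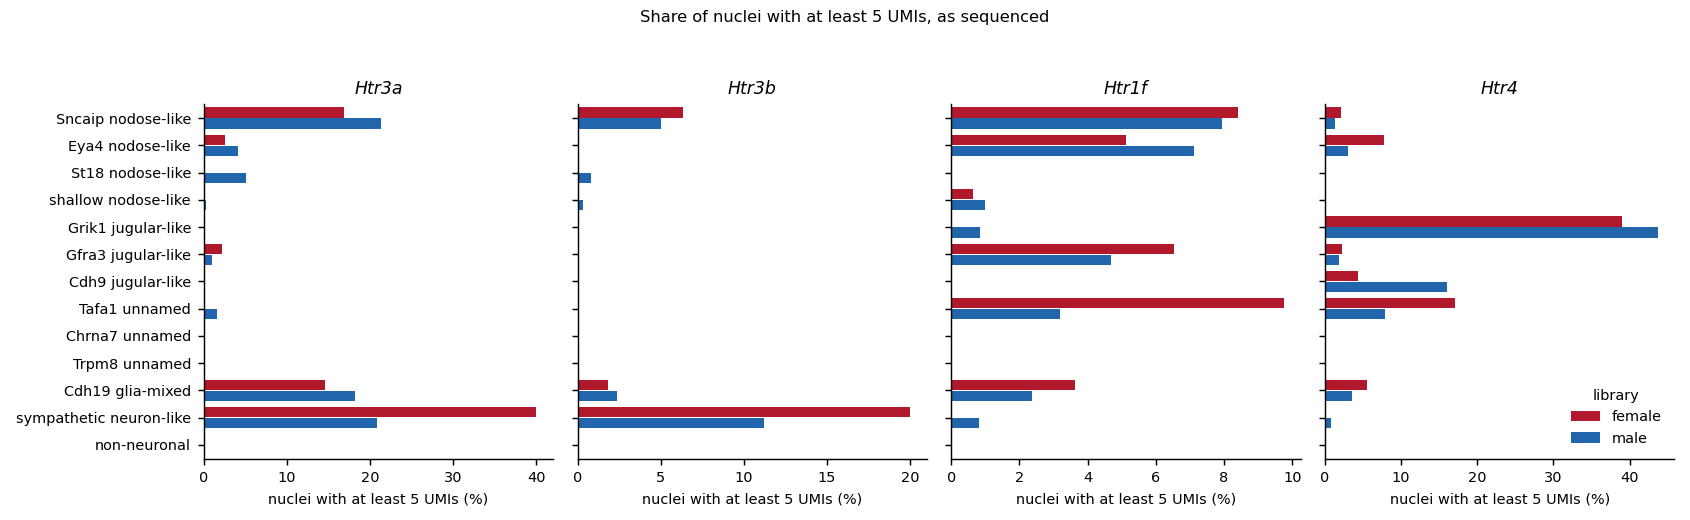
Percent of nuclei with at least 5 UMIs of Htr3a, Htr3b, Htr1f and Htr4 (horizontal axes from 0, each on its own scale) in each neuron type and in all non-neuronal nuclei, female pool in red and male pool in blue, bars as sequenced. Grik1 jugular-like nuclei reached 39.0% and 43.7% for Htr4 and Sncaip nodose-like nuclei 16.8% and 21.3% for Htr3a, while 3, 0, 0 and 1 of the 5407 non-neuronal nuclei reached 5 UMIs of the 4 genes. The 40.0% female bar of the sympathetic neuron-like type for Htr3a rests on 5 nuclei.

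Htr7, the other Gs-coupled receptor gene, was low, and most of it was in a pair of types. It was at 0.0786 UMIs per 10000 (63 UMIs) and 0.0822 (153 UMIs) in neuron-like nuclei and at 0.0209 (14 UMIs) and 0.0166 (13 UMIs) in non-neuronal nuclei, 3.67-fold and 4.78-fold lower. Tafa1 nuclei had 0.325 and 0.416 and Eya4 nodose-like nuclei 0.296 and 0.254, and these types held 41.2% and 38.9% of the neuron-like Htr7 UMIs. In the female pool 3 of the 41 Tafa1 nuclei held 63.6% of that type's 33 UMIs. Grik1 and Gfra3 jugular-like nuclei had 0 UMIs in both libraries. Nodose-like nuclei had 28 and 67 UMIs and jugular-like nuclei 0 and 10, so that Htr7 was at least 5.15-fold higher in female nodose-like nuclei, taking 3 counts as the floor, and 3.43-fold higher in male ones. Of the 95 nodose-like UMIs, 84 were in the Eya4 type. The Sncaip, St18 and shallow nodose-like types were at 0.0162, 0.00412 and 0.0188, libraries summed, near the 0.0186 of non-neuronal nuclei. All 10 male jugular-like UMIs were in the Cdh9 type, at 0.0993. Macrophage-like nuclei had 0.181 and 0.134, but from 5 and 4 UMIs.

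The receptors thus fell on different types, and UMIs of several were found in some types. In Tafa1 nuclei Htr7, Htr1d and Htr1b were among the highest of all types, and Htr4 was at 1.16 and 0.601. Eya4 nodose-like nuclei had Htr1f at 0.941 and 0.861 beside Htr7. In St18 nodose-like nuclei Htr1f was at 0.0875 and 0.0345 and Htr4 at 0 and 0.0230, and their Htr3a, at 0.263 and 0.747, was below the non-neuronal 0.443 and 1.63. Over the 12 types r was 0.81 between Htr1d and Htr7 and 0.58 between Htr2a and Htr4.

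The levels of different receptors were also scaled by length, since introns were counted. UMIs count transcript molecules by 3′ chemistry and need not rise with length, so neither scale settles the order of the receptors. Without scaling, Htr3a was at 1.11, Htr4 at 0.757, Htr1f at 0.520 and Htr3b at 0.355. Over all neuron-like nuclei of both libraries Htr3a had 0.535 UMIs per 10000 per kb of exon, Htr1f 0.202, Htr4 0.154 and Htr3b 0.147, and the other 6 had between 0.00268 for Htr1a and 0.0370 for Htr1b. Per 100 kb of gene span the order changed, with Htr3a at 9.38, Htr1b at 3.15 and Htr3b at 1.18 ahead of Htr4 at 0.439. Htr3a led on both scales, but its neuron-like level was no more than its non-neuronal one over both libraries (log2 ratio 0.04), so this lead is not one over the background. Htr1f and Htr1b traded places, as Htr1f spans chr16:64924729-65105854 and Htr1b only chr9:81628291-81633828. The remaining genes on mm10 were Htr1a at chr13:105443639-105448122, a gene of 1 exon, Htr1d at chr4:136423524-136444398, Htr2a at chr14:74640840-74709494, Htr2c at chrX:146962513-147197277 and Htr7 at chr19:35958734-36057507, and Htr4 lies on chromosome 18.

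For the 9 receptors with at least 100 neuron-like UMIs, the genes most like each in level over the 12 types were listed among 13321 genes. Sez6l (r of 0.94 and 0.97) and Dmkn (0.92 and 0.94) were in the 5 highest of both Htr3a and Htr3b, and Htr3a was itself in the list of Htr3b at 0.91. Htr4 was most like Grik1 (0.95), a kainate receptor subunit that gives the Grik1 type its name, and Rassf9 (0.94). Htr7 was most like Neto1 (0.93), an accessory subunit of kainate receptors, Htr1d like Tial1 (0.96) and Enpp2 (0.92), and Htr2a like Gm32592 (0.95). Htr1b was led by Gm13849 (0.91), Htr1f by Zfp511 (0.91) and Col24a1 (0.91), and Htr2c by 4930452B06Rik (0.90). With 12 types and this many genes, such values are descriptions only.

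Genes around the receptors were read from lists. Of the 4 other serotonin receptor genes 3 had enough UMIs, and Htr5a and Htr2b were higher in neuron-like than non-neuronal nuclei, 2 of 3 against 12.0% of all genes. Htr5a had 18 and 51 UMIs in neuron-like against 6 and 6 in non-neuronal nuclei, and Htr2b was at 0.262 and 0.278 against 0.130 and 0.127. Psmd1 overlaps Htr2b on the opposite strand, and had 4346 UMIs in neuron-like and 1977 in non-neuronal nuclei. None of the list differed by 2-fold between nodose-like and jugular-like nuclei. The list's median log2 ratios were 1.09 and -0.37 in the 2 comparisons.

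Of the 8 genes of serotonin synthesis, transport and breakdown, 7 were tested between neuron-like and non-neuronal nuclei and none met the rule, against 12.0% higher and 16.9% lower of all genes. Between nodose-like and jugular-like nuclei 5 were tested and 3, Maob, Ddc and Slc18a1, were higher, against 7.33%. The log2 ratios were 3.51 and 1.95 for Maob, which breaks down amines, 4.72 and 1.78 for Ddc, the decarboxylase that makes serotonin and dopamine, and 1.28 and 1.10 for the vesicular transporter Slc18a1. Tph1 and Tph2, which carry out the first step of serotonin synthesis, had 11 and 13 UMIs and 9 and 7 UMIs in the whole libraries. The plasma membrane transporter Slc6a4 had 9 and 18. The list's medians were 0.08 and 1.18. The 2 genes of channel assembly, Ric3 and Tmem35a, met the rule in neither comparison, with medians of 0.25 and 0.23.

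Of 17 genes for G proteins and enzymes downstream, Gnal (1.87 and 1.19) and Adcy2 (1.43 and 1.49) were higher in neuron-like nuclei, 2 of 17 against 12.0% of all genes, a share near the background. Plcb4 (2.24 and 1.99), Adcy8 (2.26 and 1.45), Adcy2 (1.68 and 1.54) and Gnas (1.54 and 1.06) were higher in nodose-like nuclei, and Adcy5 (-1.43 and -1.56) and Gnal (-1.15 and -1.15) in jugular-like nuclei, 4 and 2 of 17 against 7.33% and 5.43%. Gnas and Gnal encode the Gs family alpha subunits, which act on adenylyl cyclases such as those of the Adcy genes. The list's medians were -0.28 and -0.27. Of the Gs-coupled receptors, Htr4, higher in jugular-like nuclei, was thus on the side of Gnal and opposite to Gnas. Htr7, higher in nodose-like nuclei, was on the side of Gnas and opposite to Gnal.

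Of 26 vagal sensory genes, 25 were tested between nodose-like and jugular-like nuclei, and 12 were higher in the first and 6 in the second, against 7.33% and 5.43% of all genes. These counts include P2rx2 (4.94 and 3.2), Cysltr2 and Tac1 (-3.30 and -2.76), which were also markers used to name the types. The sides of these genes were thus set by the naming. Of the other genes, Glp1r (3.79 and 2.84) was on the side of Htr3a. Calca (-3.00 and -2.30) and Piezo2 (-2.01 and -2.05) were higher in jugular-like nuclei, as was Htr4, but Calca lay in another type. Libraries summed, Calca was at 20.1 in Gfra3 nuclei, where Htr4 was low. It was at 2.65 in Grik1 and 1.48 in Cdh9 nuclei, where Htr4 was highest, and at 1.65 in nodose-like nuclei. Piezo2 was at 11.3 in Grik1, 25.9 in Cdh9 and 2.76 in Gfra3 nuclei. Between neuron-like and non-neuronal nuclei 6 of 25 were higher, against 12.0% of all genes, among them Scn10a (2.99 and 1.82) and P2rx3 (2.33 and 1.55), and Lepr was lower (-3.36 and -3.53). The list's medians were 0.50 and 0.93.

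The study was designed to compare the sexes, and the receptors are given here for each library within neuron types. Htr3a was the 1 receptor whose neuron-like level was 2-fold apart, higher in the male pool by a log2 ratio of 1.07 (0.93 to 1.21). Without the sympathetic neuron-like type, of which 5 nuclei were female, no receptor reached 2-fold. The share of all genes 2-fold apart between the libraries is not given, so these counts have no background. The non-neuronal level of Htr3a was also higher in the male pool, by 1.88 (1.70 to 2.07). Within the types that had at least 20 UMIs the ratio was positive throughout, from 0.31 in Cdh9 to 1.86 in Grik1 jugular-like nuclei, and it was 0.80 in Sncaip and 0.39 in Eya4 nodose-like nuclei. The male excess of Htr3a was therefore larger in non-neuronal nuclei than in neuron-like nuclei as a whole, and the part of free RNA in it was not tested.

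Htr3b was also higher in the male pool, with a male over female log2 ratio of 0.66 in neuron-like nuclei and 1.5 in non-neuronal nuclei, but 0.00 in Sncaip nodose-like nuclei. The neuron-like ratio includes the sympathetic neuron-like type, with 125 male and 5 female nuclei. That type held 215 of the 744 male and 11 of the 202 female Htr3b UMIs, and the ratio without it is not given. On fewer UMIs, non-neuronal Htr1f (1.09, 0.16 to 2.17) and Htr1d (1.26, 0.17 to 2.59) were higher in the male pool as well. Htr4 was lower in the male pool, at -0.50 (-0.63 to -0.37) over neuron-like nuclei. By type it was -0.99 in Eya4, -0.95 in Tafa1, -0.71 in Sncaip and -0.23 in Grik1 nuclei. Cdh9 nuclei had the opposite sign at 0.80 (0.27 to 1.42). Few nuclei held much of this Htr4. Nuclei with at least 5 UMIs held 60.0% of female and 39.8% of male Eya4 UMIs, 83.9% and 38.3% in Tafa1 and 63.4% and 68.0% in Sncaip. In the female pool these were 6, 7 and 2 nuclei. As sequenced, 17.4% of female and 17.0% of male neuron-like nuclei had a UMI of Htr4. Htr1f differed little over neuron-like nuclei, at -0.11, with -1.34 (-1.89 to -0.81) in Tafa1 and 0.68 in Gfra3 nuclei, where few nuclei held most of the UMIs. For Htr1b, Htr1d, Htr2a, Htr2c and Htr7 the ratio over neuron-like nuclei lay between -0.26 and 0.17. None of these ratios has a replicate of either sex behind it.

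**Figure D4:**
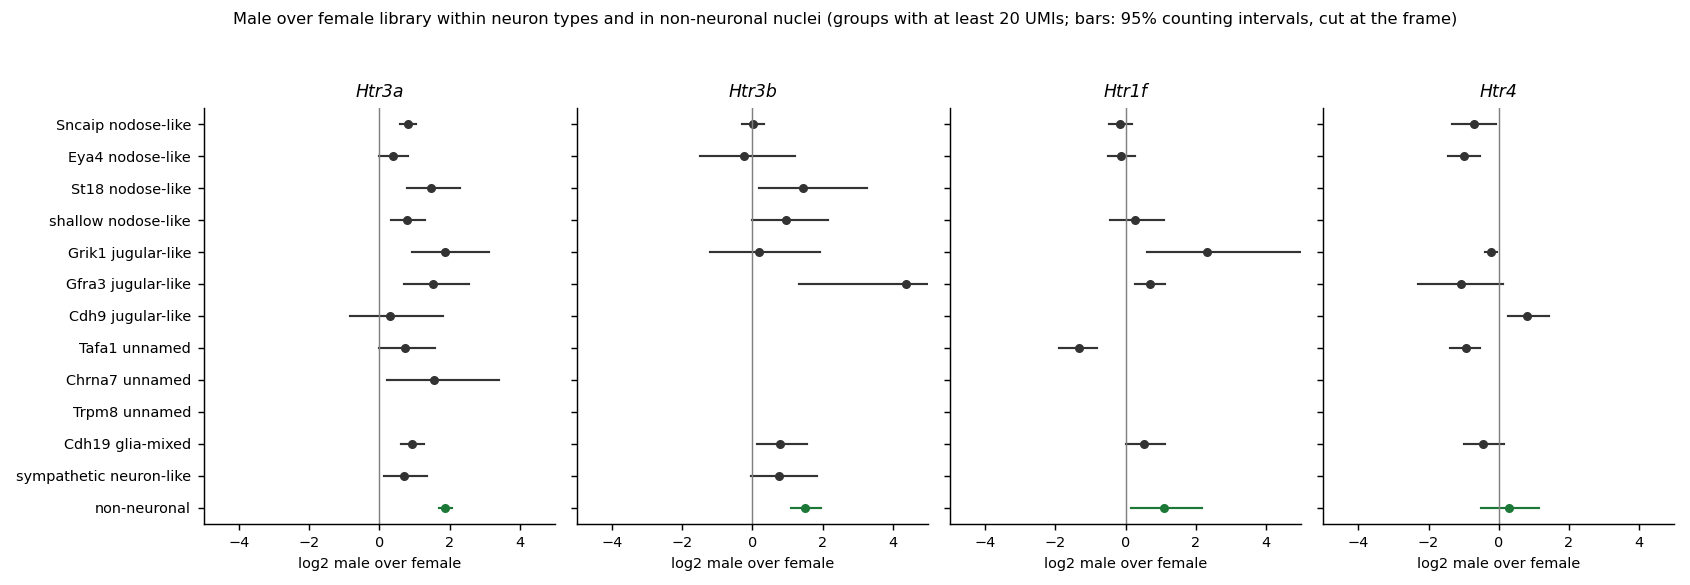
Log2 ratio of the male over the female level of Htr3a, Htr3b, Htr1f and Htr4 within neuron types that had at least 20 UMIs of the gene, and in all non-neuronal nuclei (green), with 95% counting intervals cut at the frame. For Htr3a all values lay above 0, with the non-neuronal value at 1.88, and for Htr4 Grik1, Eya4, Tafa1 and Sncaip nuclei lay between -0.99 and -0.23 while Cdh9 nuclei lay at 0.80.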

How the data were processed

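The authors used 10x Genomics 3′ chemistry and Cell Ranger (7.1.0 in the submitters' processing notes) with mm10 and introns counted, removed debris with DIEM, kept nuclei with over 250 genes and over 1000 UMIs, and aggregated both libraries with depth normalization by subsampling reads. The authors deposited counts of UMIs per gene and barcode, and 1 barcode suffix per library. The suffixes were assigned to sexes by the number of nuclei, 3791 and 4923, that the study gives for each sex. Of 8714 nuclei, 8694 had over 1000 UMIs. The libraries held 17435300 and 27529730 UMIs. No doublet caller was run here.

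Clustering used python 3.11.15, scikit-learn 1.9.0, igraph 0.11.9, numpy 2.4.6, scipy 1.17.1 and pandas 2.3.3, with 23469 genes, 10 principal components and 20 clusters. Neuron-like nuclei were clustered again with 15 components, with genes scaled within each library. Clusters were named where at least 3 listed markers were 1.5-fold up. All Htr genes, sex-linked genes, EGFP and the genes of the study's list of female and male differences were left out.

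Levels are summed UMIs per 10000 UMIs of the class, with exact Poisson intervals, and shares have Clopper-Pearson intervals. Log2 ratios add 0.5 UMIs to both sums, and genes with at least 20 UMIs over both classes were tested. For r, 0.05 was added to levels before the log. No p was computed, since each group is 1 library. All members are named, as are the list genes with at least 20 neuron-like UMIs and 2-fold apart in both libraries (at most 6 a list) and the 5 genes of highest r. The members and lists were chosen with earlier results of these data known. Alternatives covered the clustering, the depth of nuclei, the background class, the averaging and the types left out. Results that need certain genes are not reported here.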

Additional observations from a re-analysis of the deposited data

Results flagged for a closer look

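Htr3a stood on opposite sides of the non-neuronal level in the 2 pools, with a log2 ratio of neuron-like over non-neuronal of 0.51 in the female pool and -0.31 in the male pool. Neither interval included 0, and the difference between the libraries was not tested, since each is 1 pool.

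Htr2c had UMIs in the pituitary cell-like nuclei, which were in neither class compared. Its level there was 0.255 UMIs per 10000 in the female and 0.756 in the male pool, against 0.136 and 0.112 in non-neuronal nuclei. In the male pool 7 of the 106 nuclei had any Htr2c, and 2 nuclei held 82.1% of the 28 UMIs.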

How the results depend on the processing

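The number of receptors at least 2-fold higher in neuron-like than non-neuronal nuclei was 4, and it was 7 with the female pool alone, 2 with macrophage-like nuclei as the background and 4 in every other setting run. The share of all genes is not given for the settings with 7 and 2. None was 2-fold lower in both libraries, or in the 1 used, in any setting run. The numbers higher and lower in nodose-like nuclei, 3 and 4, were the same in all settings run. With macrophage-like nuclei as the background the log2 ratio of Htr7 was -1.02, from 9 macrophage-like UMIs. Htr3a, at 0.04 over both libraries, was at 0.18 in nuclei with over 2000 UMIs, -0.11 with genes scaled within each library, -0.10 without the sympathetic neuron-like type and -0.09 without the glia-mixed type. The number of receptors 2-fold apart between the libraries, 1, was 2 with a mean over types that count the same and 0 without the sympathetic neuron-like type. The share of all genes is not given beside these numbers. The share of neuron-like nuclei with Htr3a was 12.0% thinned to 1000 UMIs, 20.3% thinned to 2000 and 48.9% as sequenced. The share of Htr3a nodose-like nuclei with Htr3b was 6.15% thinned and 30.5% as sequenced, where depth differs. With no minimum other than 1 UMI, 2961 genes were 2-fold higher and 4416 lower in neuron-like nuclei in place of 2283 and 3214. The alternatives that leave out types, cluster the endothelial cell-like nuclei again or use nuclei of at least 5000 UMIs were added after the values were seen. No paired analysis was possible because each group has 1 library. Htr1a, at 32 neuron-like UMIs, is limited by depth.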

Other observations

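Htr1f had 32 UMIs in the 19 female nuclei of the unnamed cluster led by Prg4, and all 32 were in 1 nucleus. The 276 male nuclei of that cluster had 2 UMIs of Htr1f, in 2 nuclei.

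Gm32335, an antisense gene that overlaps Htr3a on the opposite strand, had 318 UMIs in neuron-like and 5 in non-neuronal nuclei, while Htr3a itself had 2968 and 1576.

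Mast cells, which store serotonin in rodents, formed no cluster of their own. Of the listed markers, Kit had the most UMIs, with 973 female and 1117 male. Cpa3 had 35 and 32, and Fcer1a had 0 in both pools. Hdc, Mcpt4, Tpsb2, Cma1 and Ms4a2 had between 2 and 20 in each pool.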
